A study of Mus musculus with 37 samples.

Results

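Complex I (NADH:ubiquinone oxidoreductase) was followed through 49 nuclear genes, 35 encoding subunits and 14 encoding assembly factors, in RNA sequencing of mouse left ventricle after cardiac arrest or adrenaline. The genes were taken from the deposited table by gene name and made up 49 of its 56748 rows. All 49 passed the filter on low values. The subunits fell into 6 matrix arm core subunits, 9 other matrix arm subunits, 19 membrane arm subunits and Ndufab1, which occurs in both arms. The strongest difference from Naïve hearts was 1 day after arrest, when 9 subunits and no assembly factor rose, where 3.89% of all tested genes rose. Hearts given adrenaline alone (Adr) at 0.5 and 1 day had subunit values mostly of the same sign, and 0 members passed the test. Without 1 Adr library of 3 days that stood apart, 20 subunits rose 1 day after arrest, where 5.78% of all genes rose. In Adr 8 subunits then rose at 0.5 days and 6 at 1 day, where 0.693% and 1.27% of all genes rose. Arrest against Adr at 1 day called 0 members. A number in the sample descriptions separates Arrest at 1 day from Naïve, and with it as a covariate 0 members passed in that comparison.

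Complex I is the entry point for NADH electrons into the respiratory chain of the inner mitochondrial membrane. Its matrix arm carries the flavin and iron-sulfur clusters that take electrons from NADH to ubiquinone, and its membrane arm pumps protons. The core subunits of the membrane arm are encoded by the mitochondrial genome, so the complex is built from products of both genomes. Assembly factors bind intermediates, insert cofactors or modify subunits, and leave before the complex is complete. Cardiac muscle is rich in mitochondria, and complex I is a known site of injury when blood flow stops and returns.

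The 37 libraries came from C57BL/6J mice of both sexes, 8 to 10 weeks old, all exposed to 5% isoflurane. In the 16 Arrest libraries, asystole was induced by 40 µL of 0.5 M KCl injected into the left ventricle and lasted 8 min before resuscitation with chest compressions and adrenaline (15 µg/mL) given into the ventricle. In the 16 Adr libraries, which the labels call sham, mice were intubated, received saline in the same volume and were then given the same adrenaline without arrest. The 5 Naïve mice were neither injected nor intubated, and were euthanized after imaging, with no recovery time. Arrest and Adr hearts were taken at 0.5, 1, 3 or 7 d, with 4 libraries in each of the 8 groups. RNA came from 50 mg of left ventricle without the apex, so each value mixes all cell types of the wall, and fewer cells of a type cannot be told apart from less RNA per cell. All 8 cardiomyocyte markers were above 0 FPKM in every library. Libraries held 13.2 to 30.2 M counted fragments, and the labels give a replicate number and a further number in each sample description, without saying whether either stands for an animal, so the p-values measure the spread between these samples.

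The third library of Adr at 3 d stood apart. Genes of the mitochondrial genome took 9.36% of its counted fragments, against 20.8 to 30.9% in the others. Its summed cardiomyocyte markers reached 3377 FPKM, against 7302 to 16040, and its summed leukocyte markers 2216 FPKM, against 261 to 1007. The median complex I subunit in it lay 1.35 below the Naïve mean on the log2 scale. Because all groups share one estimate of the spread, this library entered every test, and counts of called members below that change without it are given both ways. The study set aside 1 poor library of this group, but the labels do not say which.

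Expression was measured as FPKM, fragments per kilobase of gene, scaled to the library. This is a level per length, so the order of genes also depends on the gene lengths listed. In Naïve hearts the subunits ranged from 4.21 ± 0.487 FPKM (mean ± SD, n = 5) for Ndufb2 to 344 ± 51.4 FPKM for Ndufb11, both membrane arm subunits, with a median over subunits of 148.7 FPKM. Assembly factors were expressed at a lower level, from 1.82 ± 0.745 FPKM for Nubpl, which delivers iron-sulfur clusters, to 29 ± 2.74 FPKM for Ecsit, a member of the complex that builds the membrane arm, with a median of 12.5 FPKM. Their ranges met only through Ndufb2, which was below all assembly factors but Nubpl, Acad9 and Ndufaf2. Next in order above Ndufb2 among subunits were Ndufab1 (43.1 ± 7.19 FPKM), Ndufa12 (47.3 ± 18.6 FPKM) and Ndufb7 (49.9 ± 8.24 FPKM), which did not differ beyond their spread. The listed lengths of Ndufb2, Ndufab1 and Ndufb7 were 5628, 6883 and 4522 bases, and that of Ndufa12 1569. FPKM divides by this length, and its part in the low values was not tested. At the top, Ndufb11, Ndufb9 (311 ± 25 FPKM), Ndufa8 (302 ± 51.7 FPKM) and Ndufb10 (293 ± 63.1 FPKM) overlapped likewise. Subunit genes were also shorter, with a median gene length of 1569 bases against 2734 for assembly factors and 3476 for all tested genes.

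Promoter sequence from RefSeq (mouse build GRCm38.p6) was used for 32 subunits and 12 assembly factors. The 250 bases before the start are shown for the 3 subunits that rose at both 0.5 and 1 d after arrest, Ndufa11 (chr17:56717512-56717761, plus strand), Ndufa7 (chr17:33824322-33824571, plus strand) and Ndufc2 (chr7:97399753-97400002, plus strand), and for an assembly factor that did not, Ndufaf3 (chr9:108567437-108567686, minus strand). Capitals mark matches to the NRF1 motif GCGCATGC on either strand.
Ndufa11: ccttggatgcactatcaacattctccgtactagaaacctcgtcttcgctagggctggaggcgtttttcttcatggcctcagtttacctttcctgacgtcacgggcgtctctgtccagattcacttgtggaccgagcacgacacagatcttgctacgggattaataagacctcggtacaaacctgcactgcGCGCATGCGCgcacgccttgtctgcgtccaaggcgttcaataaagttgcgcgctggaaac
Ndufa7: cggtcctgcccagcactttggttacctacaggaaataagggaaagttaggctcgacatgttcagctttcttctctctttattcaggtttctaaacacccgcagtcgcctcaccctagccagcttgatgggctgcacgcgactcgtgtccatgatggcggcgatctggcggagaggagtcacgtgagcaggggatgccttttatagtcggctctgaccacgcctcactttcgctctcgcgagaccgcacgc
Ndufc2: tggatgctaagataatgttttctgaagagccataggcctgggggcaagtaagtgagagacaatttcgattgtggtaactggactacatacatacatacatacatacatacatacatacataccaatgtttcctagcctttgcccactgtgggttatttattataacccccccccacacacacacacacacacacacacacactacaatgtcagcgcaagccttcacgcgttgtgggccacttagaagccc
Ndufaf3: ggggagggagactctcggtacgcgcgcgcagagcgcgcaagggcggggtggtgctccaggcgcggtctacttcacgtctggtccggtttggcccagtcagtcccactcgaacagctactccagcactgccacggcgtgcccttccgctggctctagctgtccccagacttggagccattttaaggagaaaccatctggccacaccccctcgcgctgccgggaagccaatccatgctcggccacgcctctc
The run in Ndufa11 is a pair of overlapping matches, 60 and 58 bases before the start, and the stretches of Ndufa7, Ndufc2 and Ndufaf3 held none. NRF1, a transcription factor known for its control of respiratory chain genes, had its motif within 250 bases before to 50 after the start in 3 of 32 subunits (Ndufa6, Ndufa8 and Ndufa11) and 2 of 12 assembly factors (Ndufaf4 and Ndufaf5), against 2.8% of the promoters of 27025 genes. The motif AAGATGGC, the core of the YY1 site, was present in 7 of 32 subunits (21.9%) and 2 of 12 assembly factors, against 2.88% of all promoters. Its 7 subunits were Ndufa3, Ndufa9, Ndufb8, Ndufc1, Ndufs4, Ndufs6 and Ndufs7, and every match of the 9 genes lay 11 to 39 bases after the start. That motif contains ATG and can hold a start codon. The ETS motif CCGGAAGT was found in 1 subunit and 1 assembly factor (4% of all promoters), and the ERR motif TCAAGGTCA in no member (0.407% of all promoters). Their shorter forms, CCGGAAG and AAGGTCA, were found in 4 and 3 of 32 subunits and in 4 and 0 of 12 assembly factors, against 9.12% and 4.66% of all promoters. Both strands were searched, a shorter form lies within its longer one, and a match describes only letters in a window.

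One day after arrest, subunits of both arms were higher than in Naïve hearts. By limma on log2(FPKM + 1), with Benjamini-Hochberg adjustment over 16579 genes and a threshold of 0.05, 9 of 49 members rose and 0 fell. For comparison, 3.89% of all tested genes rose. The members that rose were 6 of 19 membrane arm subunits, 2 of 9 other matrix arm subunits and Ndufab1. None of the 6 core subunits and none of the 14 assembly factors passed, though 4 core subunits (Ndufv2, Ndufs3, Ndufs7 and Ndufs8) and 1 assembly factor (Ndufaf5) were among the 25 members with a raw p of 0.05 or less, which 21.7% of all genes had. The fitted difference was above 0 for 34 of 35 subunits and 10 of 14 assembly factors, and the medians were 0.54 and 0.11 (log2), against 0.01 to 0.04 for all genes in the 8 comparisons with Naïve. Without the Adr 3 d library described above, 20 members rose, all of them subunits, and 5.78% of all genes rose. Leaving out Arrest replicate 1 or 3 left 5 and 4 members, and 577 and 486 of all genes called in either direction where all libraries gave 1179. A fit with the number in the sample descriptions as a covariate called 0 members and 34 genes. Over all libraries that number follows the groups in part (R2 of 0.675 on group). Every Arrest library at 1 d has a lower number than every Naïve library, so its part cannot be told apart from that of arrest. Summed cardiomyocyte markers were 11670 to 13930 FPKM in Naïve and 13500 to 15520 FPKM in Arrest at 1 d. Of the 8 markers 4 had a higher median in Arrest and 4 a lower one. Myl2 and Tnnt2 lay above Naïve in every library, and Ryr2 below it in every library, at 25.2 to 30.5 FPKM against 39.4 to 43.8 FPKM. Summed leukocyte markers were 270 to 474 FPKM in Naïve and 268 to 402 FPKM in Arrest, and red blood cell markers 1687 to 3935 and 1554 to 1708 FPKM. Most of the leukocyte sum was Lyz2, at 242 to 441 FPKM in Naïve and 228 to 361 FPKM in Arrest. Of the 9 leukocyte markers 6 had a higher median in Arrest and 3 a lower one. Cd68 (11.4 to 16.8 against 5.26 to 10.5 FPKM) and S100a8 (2.42 to 9.37 against 0 to 1.54 FPKM) lay above Naïve in every library. The part of these markers in the difference was not tested.

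**Figure D1:**
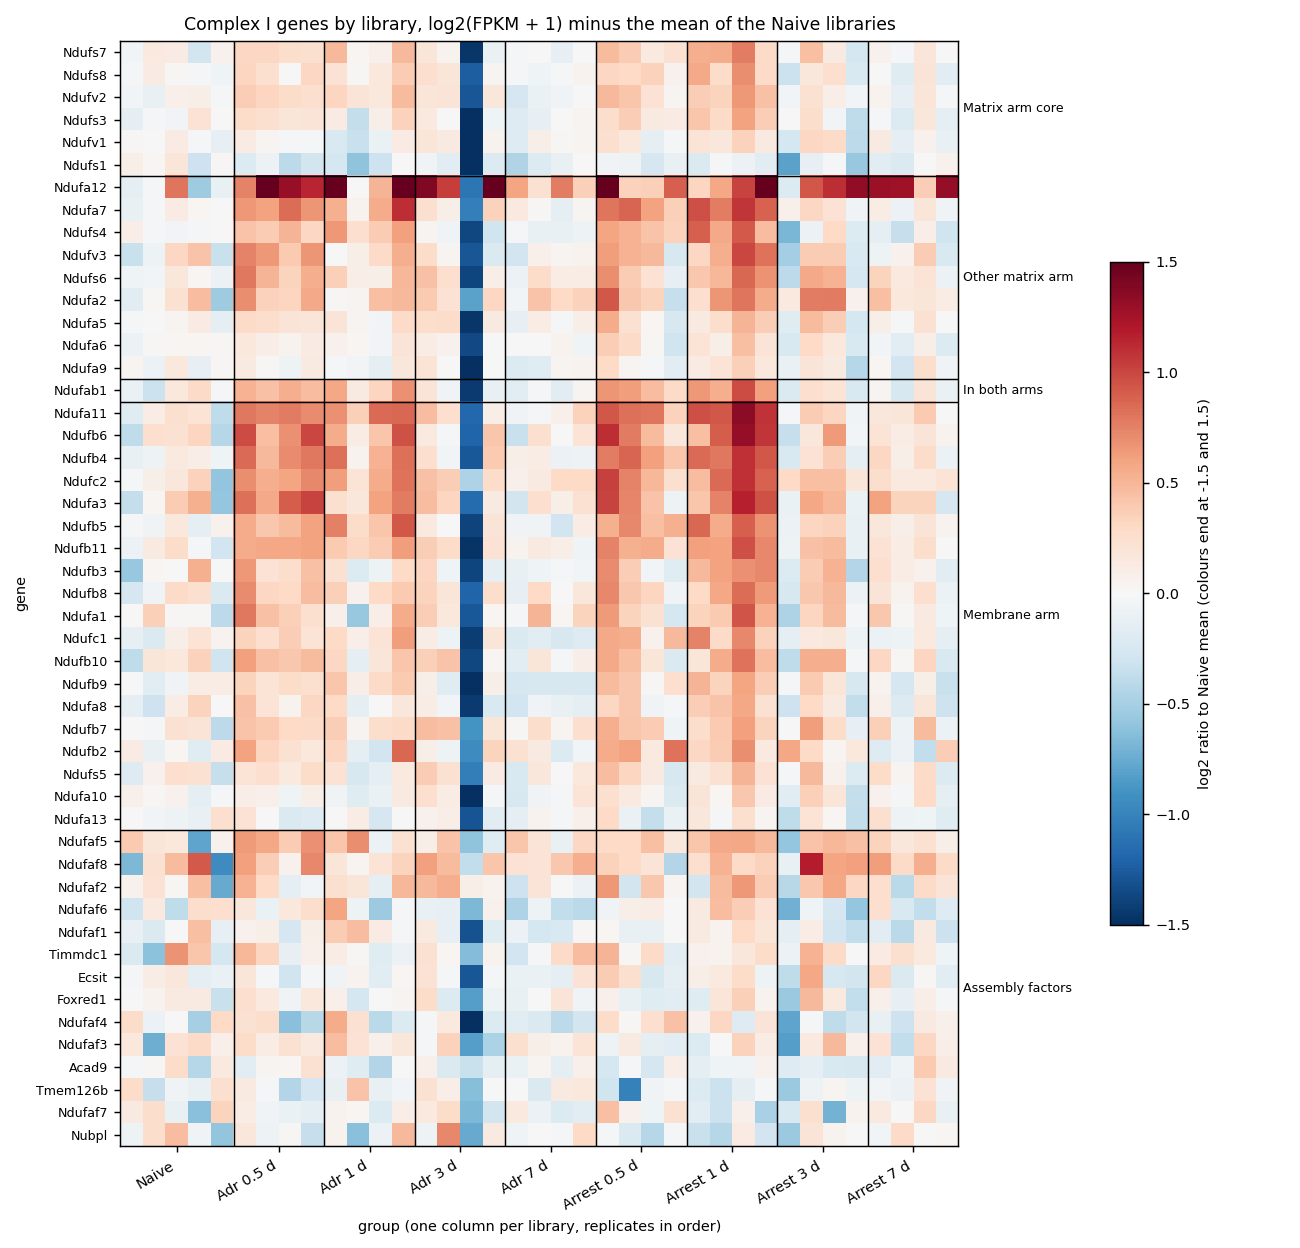
Each row is 1 of the 49 genes, grouped by role, and each column 1 of the 37 libraries, in groups separated by lines. Colour gives log2(FPKM + 1) minus the mean of the Naïve libraries, ending at −1.5 and 1.5. Most subunit rows are above the Naïve mean in Adr at 0.5 d and Arrest at 1 d, assembly factor rows are mixed, and the third column of Adr 3 d is low in nearly every row.

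Ndufa11 (ENSMUSG00000002379) is a membrane arm subunit that helps to hold the membrane arm together. Naïve libraries measured 180.3, 220.4, 241, 235 and 157 FPKM, and Arrest libraries at 1 d measured 399, 389, 519 and 434 FPKM. Every Arrest library was above every Naïve library, and the difference was 1.08 ± 0.21 (log2, SE), with a limma adjusted p of 0.00208, the smallest of the 49. At 0.5 d after arrest it measured 392, 362, 357 and 259.9 FPKM, again above all Naïve values, with a difference of 0.73 ± 0.21 (limma adjusted p = 0.0448). In Adr the libraries measured 353, 344, 351 and 335 FPKM at 0.5 d and 329, 262, 367 and 372 FPKM at 1 d. These did not overlap Naïve either, yet the difference at 0.5 d, 0.76, did not pass the threshold (limma adjusted p = 0.0915, and 0.00746 without the Adr 3 d library). By 7 d, values of 203 to 268 FPKM after arrest and 197 to 260.1 FPKM after adrenaline overlapped the Naïve range.

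Ndufa7 (ENSMUSG00000041881), an accessory subunit of the matrix arm, measured 96.6, 102, 113, 106 and 104 FPKM in Naïve. At 1 d after arrest it measured 205, 178, 221 and 192 FPKM, above all Naïve libraries, a difference of 0.92 ± 0.18 (limma adjusted p = 0.00288). At 0.5 d after arrest the values were 182, 191, 158 and 133 FPKM, also clear of Naïve, with a difference of 0.65 ± 0.18 (limma adjusted p = 0.044). The Adr libraries at 0.5 d, with 164, 158, 186 and 166 FPKM, lay within the range of the Arrest libraries of the same time. Their difference from Naïve was 0.69 (limma adjusted p = 0.0896, and 0.00778 without the Adr 3 d library).

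Ndufc2 (ENSMUSG00000030647), a small membrane arm subunit, was the last of the 3 that rose at both times after arrest. Naïve libraries measured 95.6, 103, 109, 123 and 63.6 FPKM and Arrest libraries at 1 d 133, 176, 208 and 179.7 FPKM. The groups did not overlap, and the difference was 0.83 ± 0.17 (limma adjusted p = 0.00428). At 0.5 d after arrest the libraries measured 198, 163, 136 and 114 FPKM. The lowest of these was below the highest Naïve library, and the difference was 0.63 ± 0.17 (limma adjusted p = 0.0419).

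Among the other membrane arm subunits that rose 1 d after arrest, Ndufb4 (ENSMUSG00000022820) measured 83.4, 85.3, 100.1, 97.2 and 86.6 FPKM in Naïve and 164, 157, 194 and 173 FPKM in Arrest, a difference of 0.92 ± 0.21 (limma adjusted p = 0.0064). Ndufb5 (ENSMUSG00000027673) measured 65.7, 64.2, 74.5, 60.4 and 69.8 FPKM and 122, 98.8, 125 and 107 FPKM, a difference of 0.75 ± 0.19 (limma adjusted p = 0.0168). Both are accessory subunits of the distal part of the arm, away from the matrix arm, and in neither did the groups overlap. Ndufb6 (ENSMUSG00000071014), from the same region, measured 104, 162, 159.7, 169.7 and 101 FPKM and 186, 256, 341 and 288 FPKM, a difference of 0.94 ± 0.25 (limma adjusted p = 0.0205). Ndufb11 (ENSMUSG00000031059), the subunit with the highest Naïve mean, measured 319, 373, 413, 334 and 279 FPKM and 521, 516, 667 and 562 FPKM, a difference of 0.72 ± 0.22 (limma adjusted p = 0.0413). In both the lowest Arrest library was above the highest Naïve library, although Ndufb6 had the wider spread. Ndufb11 was the least stable call: it held in 5 of the 13 fits with a single library removed, against 13 of 13 for Ndufa11, Ndufa7, Ndufc2 and Ndufb4. Ndufa13 (also called GRIM-19), with the smallest difference in the arm, measured 212, 206, 201, 197 and 251 FPKM and 238, 208, 251 and 219 FPKM. These ranges overlapped, and the difference was 0.10 ± 0.19 (limma adjusted p = 0.812).

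In the matrix arm, Ndufs4 (ENSMUSG00000021764), whose loss in mice causes a Leigh-like disease, joined Ndufa7 past the threshold. It measured 88.4, 81.1, 80.2, 81.2 and 82 FPKM in Naïve and 155, 122, 157 and 114 FPKM in Arrest at 1 d, with no overlap and a difference of 0.71 ± 0.19 (limma adjusted p = 0.0174). Ndufa9, near the ubiquinone site, had the smallest difference among the other matrix arm subunits. Its libraries measured 152, 139, 166, 136 and 149.7 FPKM and 162, 171, 191 and 166 FPKM, overlapping, with a difference of 0.21 ± 0.21 (limma adjusted p = 0.617). Of the core subunits, Ndufs7, which holds the last iron-sulfur cluster before ubiquinone, differed most, with 229, 261, 258, 194 and 247 FPKM in Naïve and 345, 348, 403 and 288 FPKM in Arrest. Those groups did not overlap, but the difference of 0.54 ± 0.20 did not pass (limma adjusted p = 0.0947). Ndufs1, the largest core subunit, measured 61.2, 58.7, 65.2, 46.3 and 58.2 FPKM and 49.4, 56.5, 54 and 51.1 FPKM, overlapping, and was the only subunit with a value below 0, -0.12 ± 0.23 (limma adjusted p = 0.817). Ndufab1 (ENSMUSG00000030869), the mitochondrial acyl carrier protein, which also serves lipoic acid synthesis, measured 39.9, 33.8, 47.9, 52.4 and 41.7 FPKM and 67.6, 62.9, 84.8 and 65.8 FPKM. Its groups did not overlap and differed by 0.70 ± 0.20 (limma adjusted p = 0.0273).

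**Figure D2:**
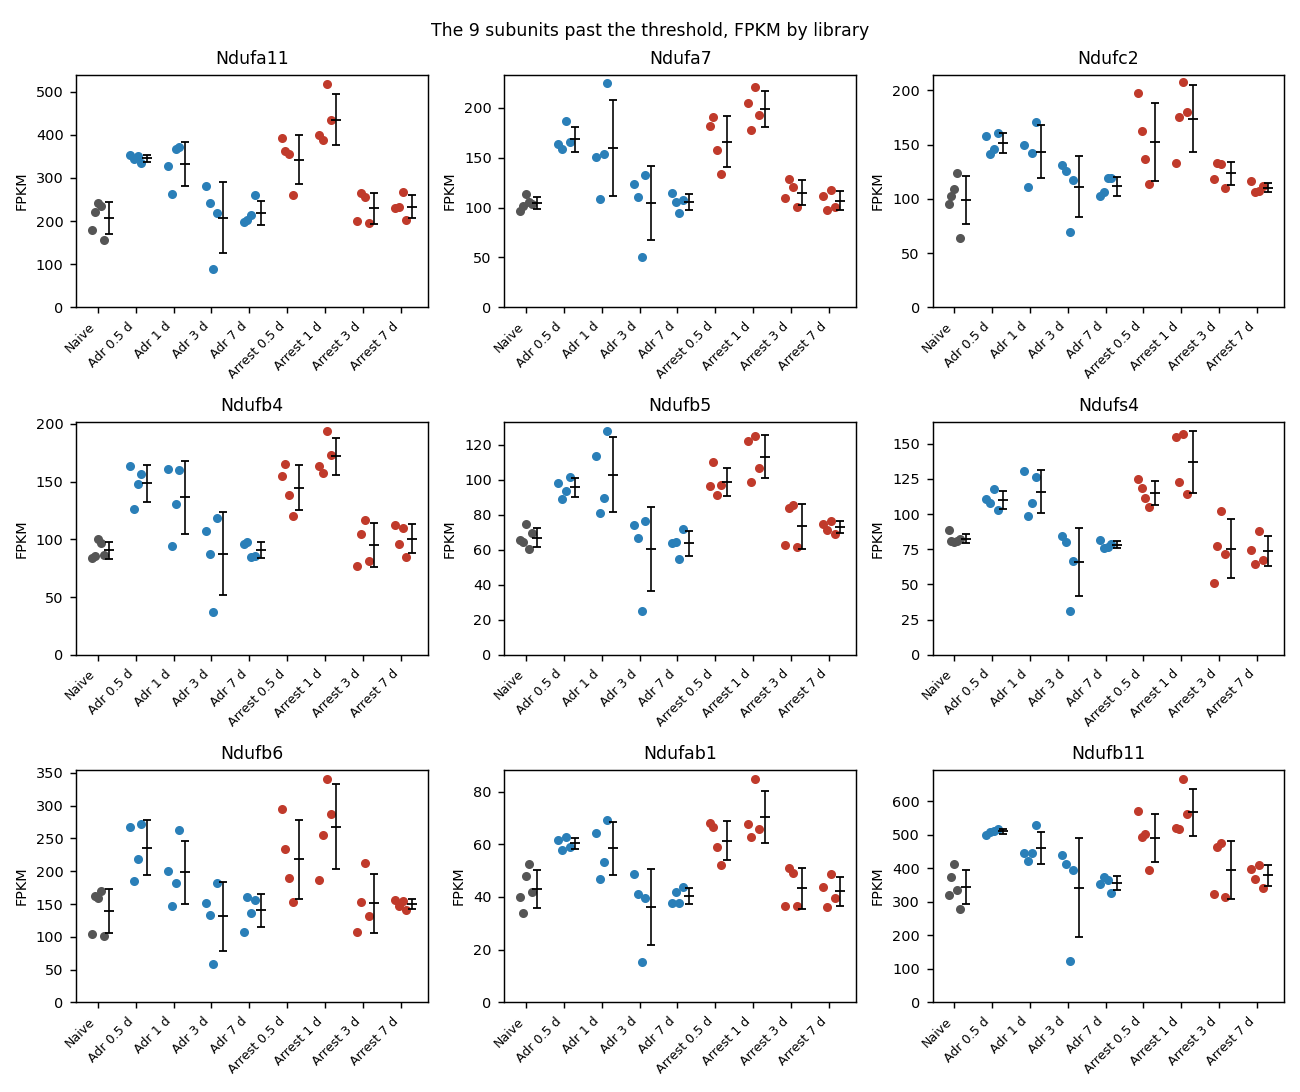
FPKM in every library (points) with the group mean and SD (bars) for the 9 subunits past the threshold 1 d after arrest, on axes starting at 0. Arrest libraries at 1 d are above all Naïve libraries in each panel, and the values of both arms at 7 d overlap Naïve.

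No assembly factor passed the test in any comparison made with all libraries. Ndufaf5, which hydroxylates Ndufs7, had the largest difference, with 13.2, 11.2, 11, 5.22 and 10.2 FPKM in Naïve and 13.3, 14.9, 15.1 and 14.1 FPKM in Arrest at 1 d. The groups did not overlap, narrowly, and the difference was 0.51 ± 0.21 (limma adjusted p = 0.133). At the other end Nubpl measured 1.59, 2.29, 2.77, 1.63 and 0.81 FPKM and 1.17, 1.03, 1.98 and 1.25 FPKM, overlapping, with a difference of -0.23 ± 0.23 (limma adjusted p = 0.613). The factors of the membrane arm assembly complex, Ndufaf1, Ecsit, Acad9, Tmem126b and Timmdc1, had differences of 0.17, 0.11, -0.05, -0.17 and 0.14. Ndufaf3 and Ndufaf4, which act together on the matrix arm, were at 0.066 and 0.092, Ndufaf7, a methyltransferase, at -0.22, and the late factor Foxred1 at 0.10. Ndufaf2, a paralogue of the subunit Ndufa12, was at 0.31, Ndufaf6 at 0.29 and Ndufaf8, a partner of Ndufaf5, at 0.35. Values of both signs occurred among factors of the same step of assembly.

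The contrast between subunits and assembly factors could be read within each library, where scaling of the library as a whole cancels in large part. It does not cancel fully, because the 1 FPKM added before the log damps the low genes, and assembly factors were lower than subunits. The median subunit minus the median assembly factor, each as a log2 ratio to the Naïve mean, was −0.098 to 0.064 in the 5 Naïve libraries and 0.316 to 0.485 in the 4 Arrest libraries at 1 d. In Adr at 0.5 d it was 0.225 to 0.378, also without overlap with Naïve. The ranges were wider in Arrest at 0.5 d (−0.0075 to 0.396), in Adr at 1 d (−0.0002 to 0.447) and in Arrest at 3 d (−0.161 to 0.306), and widest in Adr at 3 d (−0.672 to 0.156), where the library that stood apart gave the lowest value. In both groups at 7 d it was −0.097 to 0.075. No test was run on these medians, because the members were chosen with earlier results of these data known.

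**Figure D3:**
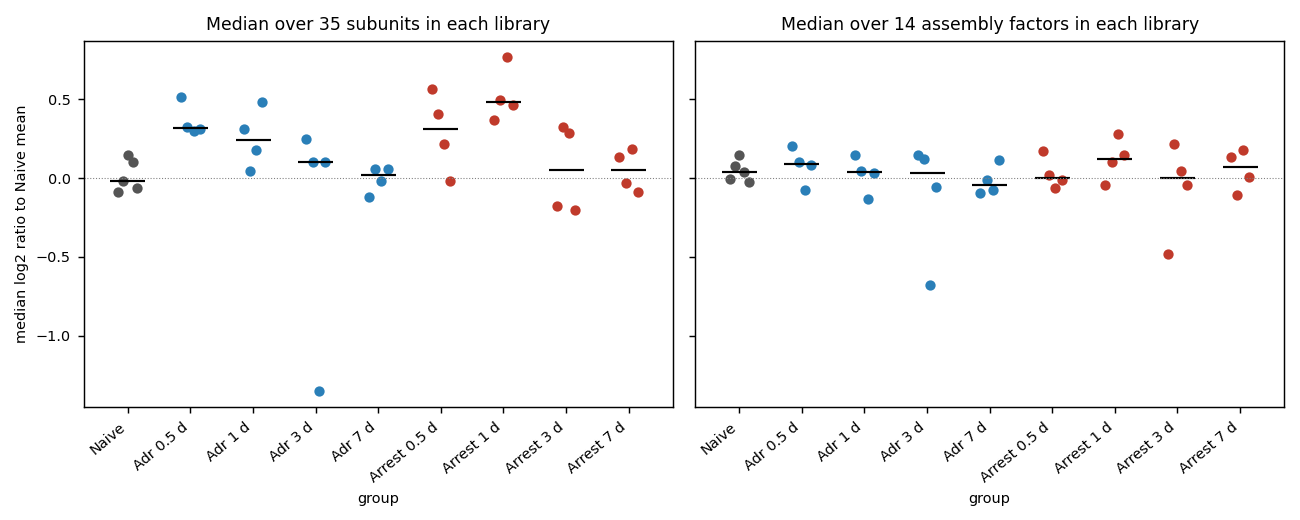
Each point is 1 library: the median over 35 subunits (left) or 14 assembly factors (right) of the log2 ratio to the Naïve mean, with lines at group medians. The 4 Arrest libraries at 1 d lie at 0.372 to 0.767 for subunits, above the Naïve libraries at −0.087 to 0.148, and 1 Adr 3 d library lies at −1.35.

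Short genes tended to lie above Naïve and long genes below it, with a rank correlation across all 16579 tested genes, which are not independent, of −0.317 between gene length and log2 difference in Adr at 0.5 d and −0.273 in Arrest at 1 d. Over the 35 subunits alone the values were −0.251 and −0.258. Each member was therefore set beside the 100 tested genes closest to it in gene length and mean level, leaving out members and other respiratory chain genes. At 1 d after arrest the subunits' median of 0.54 compared with 0.29 for their neighbours, and 31 of 35 subunits were above their own neighbours' median, by a median of 0.24. Assembly factors, at 0.11, were beside neighbours at 0.16, with 7 of 14 above. Ndufb5 was above 99% of its neighbours and Ndufab1 above 97%, and these are among the longer subunit genes, 4995 and 6883 bases, whose neighbours had medians of -0.033 and -0.039. Ndufb4, Ndufs4, Ndufa11 and Ndufa7 were above 96, 95, 94 and 94% of theirs. For Ndufc2 and Ndufb11, among short genes of high level, the neighbours' medians were 0.42 and 0.29, and the share below fell to 87 and 81%. Ndufa13 was above only 17% of its neighbours. In Adr at 0.5 d the subunits exceeded their neighbours by a median of 0.22 (29 of 35 above), and in Adr at 1 d by 0.077 (21 of 35 above).

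**Figure D4:**
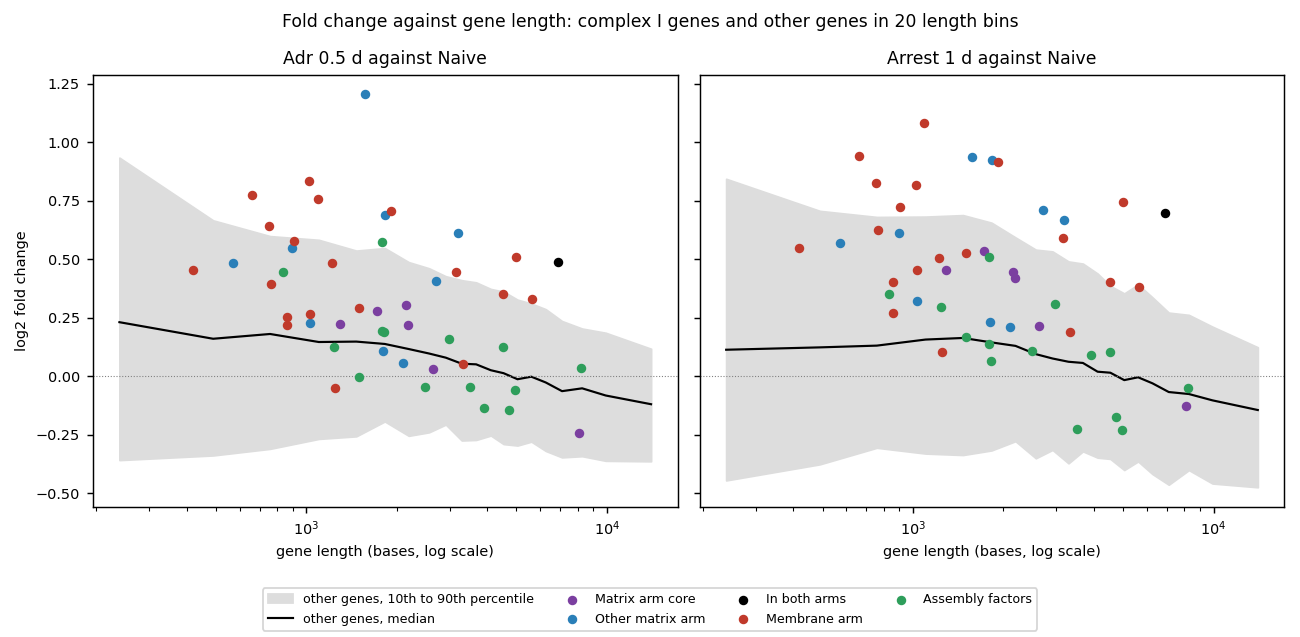
Log2 difference from Naïve against gene length in bases (log axis) in Adr at 0.5 d (left) and Arrest at 1 d (right): points are the 49 genes by role, the line is the median of all other tested genes in 20 length bins, and the band spans their 10th to 90th percentiles. Most subunits lie above the line at their own length in both panels, while assembly factors lie on both sides of it.

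In Adr at 0.5 d the comparison with Naïve takes in adrenaline, saline injection, intubation, ventilation and recovery, without arrest. Values were above 0 for 33 of 35 subunits and 8 of 14 assembly factors, with medians of 0.39 and 0.08. limma called 0 of 49 members, against 0.187% of all genes, with 16 members and 14% of all genes at a raw p of 0.05 or less. Without the Adr 3 d library 8 subunits rose (Ndufa7, Ndufa3, Ndufa11, Ndufb4, Ndufb5, Ndufb11, Ndufc2 and Ndufab1), where 0.693% of all genes rose. All 4 Adr libraries were above all Naïve libraries in 21 subunits and 0 assembly factors, against 3.35% of all genes. Ndufs7 was one such gene, with 293, 293, 284 and 279.6 FPKM, and Ndufb11 another, with 500.1, 508, 512 and 518 FPKM. Summed cardiomyocyte markers were 13180 to 16040 FPKM in this group. Of the 8 markers 6 had a higher median than in Naïve and 2 a lower one. Myl2 lay above Naïve in every library, and Ryr2 below it, at 24.1 to 36.3 FPKM against 39.4 to 43.8 FPKM. The part of these markers was not tested. After arrest at 1 d, all libraries were above all Naïve libraries in 22 subunits and Ndufaf5, against 5.69% of all genes. These comparisons share the Naïve libraries.

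In Adr at 1 d the 4 libraries had subunit medians of 0.31, 0.047, 0.178 and 0.482. Summed atrial markers (Myl7 and Sln) in the same libraries were 0.461, 566, 110.0 and 15.2 FPKM. Summed leukocyte markers were 411, 560, 551 and 282 FPKM, and cardiomyocyte markers 15120, 12970, 11000 and 11940 FPKM. Across genes, the rank correlation of gene length with log2(FPKM + 1) minus the gene's mean over all libraries was −0.157, 0.0215, −0.0754 and −0.1855. The part of these markers and of this length trend was not tested. The fitted subunit median was 0.25, with 29 of 35 above 0, and the assembly factors' median was 0.02. limma called 0 members, where 0.627% of all genes were called, and 8 members had a raw p of 0.05 or less, near the share of 14.7% over all genes. Ndufa7 measured 151, 108, 154 and 225 FPKM, with replicate 2 within the Naïve range and replicate 4 above the other libraries of the group. Without overlap with Naïve were 5 subunits (Ndufv2, Ndufs4, Ndufa11, Ndufb5 and Ndufb11), against 2.5% of all genes. Without the Adr 3 d library, 6 subunits rose (Ndufs4, Ndufa7, Ndufa11, Ndufb4, Ndufb5 and Ndufc2), where 1.27% of all genes rose.

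At 0.5 d after arrest, 3 of 49 members rose, Ndufa11, Ndufa7 and Ndufc2, where 1.75% of all genes rose. Without the Adr 3 d library 9 rose, where 3% of all genes rose. The subunit median was 0.31 and the assembly factor median 0.05, and 33 of 35 subunits were above 0. Libraries of this group differed among themselves, with subunit medians from −0.02 to 0.569. The lowest, replicate 4, also had the lowest summed cardiomyocyte markers of the group, 10090 FPKM. Gene length was also set, across genes, against log2(FPKM + 1) minus the gene's mean over all libraries. That rank correlation was 0.166 in replicate 4, above the other 3 libraries of the group. The part of the markers and of this length trend was not tested. Every Arrest library was above every Naïve library in 7 subunits (Ndufs7, Ndufs4, Ndufa7, Ndufa11, Ndufb2, Ndufb4 and Ndufb5), against 4.49% of all genes. All 3 calls were lost without Naïve replicate 1, 2 or 5 or Arrest replicate 1, 2 or 3, and 1 was left without Naïve replicate 4. Arrest at 0.5 d against Arrest at 1 d called 0 members and 0% of all genes, with a raw p of 0.05 or less in 0 members and 2.96% of all genes.

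Whether arrest hearts differed from hearts given adrenaline alone was asked at each time point. At 0.5 d limma called 0 members (0% of all genes), 0 at a raw p of 0.05 or less (3.87% of all genes), and the subunit median was −0.03. Ndufa11 differed by -0.029 with a 95% interval of -0.47 to 0.41, and Ndufa7 by -0.033 with an interval of -0.43 to 0.36. These intervals leave room for a difference in either direction. At 1 d the values were above 0 for 34 of 35 subunits, with a median of 0.28, and for 9 of 14 assembly factors, with a median of 0.12. limma called 0 members (0% of all genes), 1 at a raw p of 0.05 or less (6.59% of all genes), Ndufb3, a membrane arm subunit, at 0.56 with an interval of 0.049 to 1.07 (limma adjusted p = 0.724). Ndufa11 differed by 0.39 with an interval of -0.051 to 0.84, and Arrest was above Adr in all libraries for Ndufa11, Ndufb3 and Ndufv1, as for 1.62% of all genes. At 3 d, limma called 0 members (0% of all genes), 1 at a raw p of 0.05 or less (5.37% of all genes), Ndufb9 at 0.50. The subunit median of 0.29 at that time includes the Adr 3 d library that stood apart, with values above 0 for all 35 subunits. Without that library the subunit median against Naïve was 0.157 in Adr at 3 d, above the 0.08 of Arrest at 3 d. The 35 values above 0 are given only with that library. At 7 d limma called 0 members (0.00603% of all genes), 0 at a raw p of 0.05 or less (2.53% of all genes), with a subunit median of 0.06. All 4 counts were also 0 without the Adr 3 d library.

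No member passed the test against Naïve at the later times. At 3 d after arrest 0 members were called (0.139% of all genes), 2 at a raw p of 0.05 or less (13.7% of all genes), the assembly factors Ndufaf6 and Ndufaf8 with differences of -0.40 and 0.57, and the subunit median was 0.08. At 7 d after arrest 0 members were called (0% of all genes), 1 at a raw p of 0.05 or less (5.14% of all genes), Ndufa12 at 1.06, with a subunit median of 0.05. In Adr 0 were called at 3 d (0% of all genes). A raw p of 0.05 or less was found for 2 (13.9% of all genes), Ndufs1 at -0.61 and Ndufs4 at -0.42. In the library that stood apart Ndufs1 was at 13.3 FPKM and Ndufs4 at 31.3 FPKM. The rest of the group held 49.8 to 55.5 and 67 to 84.8 FPKM, and Naïve libraries 46.3 to 65.2 and 80.2 to 88.4 FPKM. The subunit median was −0.19 and became 0.157 without the library that stood apart. In Adr at 7 d 0 were called (0% of all genes), 0 at a raw p of 0.05 or less (6.17% of all genes), with a subunit median of −0.003. These 4 counts were 0 without that library as well.

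Within the Arrest arm, 1 d was higher than 7 d for Ndufa7 (0.89 ± 0.19, limma adjusted p = 0.0157), Ndufs4 (0.88 ± 0.20, 0.0171) and Ndufa11 (0.90 ± 0.22, 0.0257), where 1.14% of all genes were higher. Without the Adr 3 d library the count was 15, where 2.25% of all genes were higher. At 7 d Ndufa7 measured 112, 97.9, 118 and 100.3 FPKM and Ndufs4 74.7, 64.9, 88.3 and 67 FPKM, below every 1 d library. All 3 calls were lost without replicate 1 or 3 of 1 d or replicate 2 or 4 of 7 d, and 5 members passed without Adr 3 d replicate 1. Against 3 d, Ndufs4 alone passed (0.88 ± 0.20, limma adjusted p = 0.0485), where 0.145% of all genes were higher. Its 3 d values of 50.7, 77.5, 102 and 71.6 FPKM did not overlap those at 1 d, and 13 members, 1 of them the assembly factor Ndufaf6, were higher at 1 d without the Adr 3 d library, where 1.22% of all genes were. That call was lost without replicate 1, 2 or 3 of 1 d or replicate 1, 2 or 4 of 3 d, and 2 and 4 members passed without Adr 3 d replicates 1 and 4. Within the Adr arm, 1 d against 7 d called 0 members (0.0422% of all genes), 8 at a raw p of 0.05 or less (9.67% of all genes). Without the Adr 3 d library 2 were higher at 1 d, Ndufb5 and Ndufb9, where 0.286% of all genes were.

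Ndufa12 had the largest log2 difference of any member in Adr at 0.5 d and of the matrix arm in Arrest at 1 d, and also the largest spread. This matrix arm subunit measured 40.6, 44.2, 79.2, 30.8 and 41.6 FPKM in Naïve and 56.7, 67.7, 91.8 and 161 FPKM in Arrest at 1 d, overlapping, with a difference of 0.94 ± 0.43 (limma adjusted p = 0.19). A processed pseudogene, Ndufa12-ps, of 402 bases, was listed at 62.6 to 298 FPKM. In Arrest at 1 d the libraries measured 298, 298, 280.1 and 87.5 FPKM of it, so that the library highest in Ndufa12 was the lowest in the pseudogene. The pseudogene took 35.9 to 60% of the fragments of the pair in Naïve. With the fragments of both added, the residual SD fell from 0.674 to 0.369 and the difference in Arrest at 1 d was 0.71 ± 0.24 (limma adjusted p = 0.0645). In Adr at 0.5 d the difference went from 1.21 to 0.62 (limma adjusted p = 0.222). Reads that match both genes can be given to either, which leaves the level of Ndufa12 alone uncertain. How reads were divided was not examined, and the cause of the spread and of its fall was not tested.

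**Figure D5:**
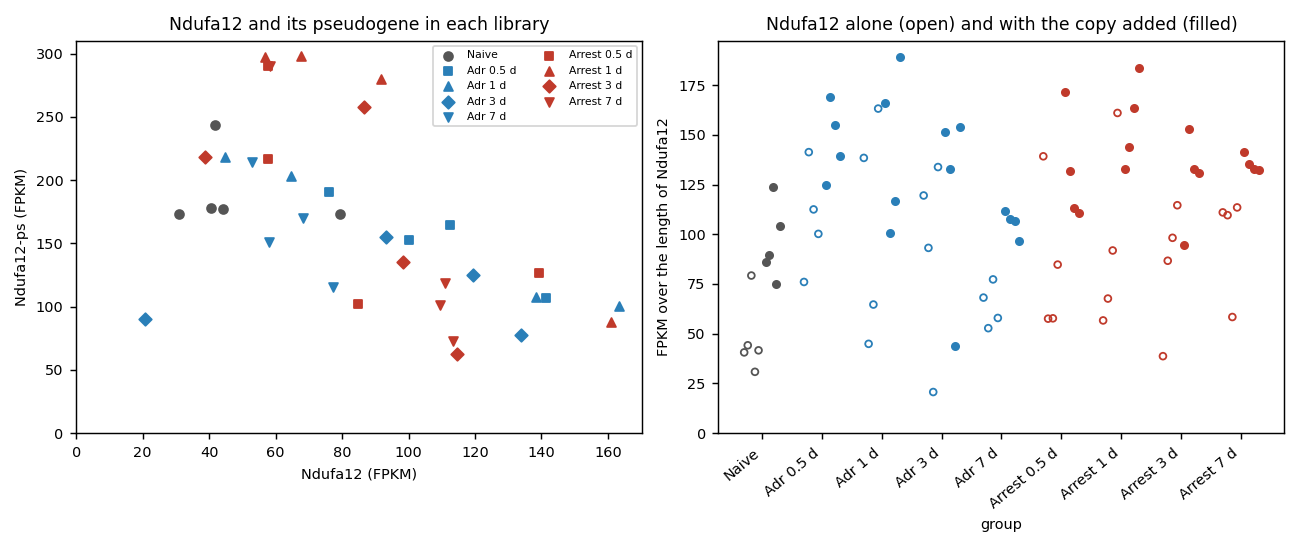
Left: FPKM of Ndufa12 against its pseudogene Ndufa12-ps in each of 37 libraries, marked by group. Right: FPKM of Ndufa12 alone (open) and with the pseudogene's fragments added over the length of Ndufa12 (filled), by group. With the copy added, Naïve libraries lie at 75.2 to 124 FPKM and Arrest libraries at 1 d at 133 to 184 FPKM.

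Other subunits have near-identical copies too. Ndufab1-ps took 10.2 to 19.6% of the fragments of its pair in Naïve and 16.2 to 18.6% in Arrest at 1 d, and the call for Ndufab1 held with them added (0.71, limma adjusted p = 0.0243). Ndufb4c took 1.67 to 6.36% in Naïve and 2.84 to 4.41% in Arrest at 1 d, and the call for Ndufb4 held as well (0.91, limma adjusted p = 0.00663). Ndufa11b and Ndufb11b were listed at 0 in Naïve and in Arrest at 1 d. Ndufs1 with Eef1b2, Ndufb5 with Mrpl47, Ndufb6 with Smim27, Ndufb11 with Rbm10 and Ndufa11 with Vmac overlap in position, and whether the counting used strand is not given in the sources used here.

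Genes of the other respiratory complexes were listed for context. At 1 d after arrest 6 of 12 complex IV genes rose, among them Cox7b at 0.92 (limma adjusted p = 0.0101) and Ndufa4, now counted with complex IV, at 0.84 (limma adjusted p = 0.0125), with a median of 0.70 over the list. In complex III 3 of 9 rose, with Uqcr10 at 0.89 (limma adjusted p = 0.0045), and the list's median was 0.57. In complex V, the ATP synthase, 3 of 15 rose, with Atp5e at 0.93 (limma adjusted p = 0.00596), and the median was 0.46. Of 4 complex II genes 0 passed, with a median of 0.25. The 7 complex I subunits of the mitochondrial genome had a median of −0.19 and 0 passed, mt-Nd5 lying lowest at −0.71 (limma adjusted p = 0.134). Among 5 tested further factors linked to complex I, Dmac1, which acts in building the distal membrane arm, rose by 0.66 (limma adjusted p = 0.00544), the only called factor outside the 49.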

How the data were processed

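RNA was isolated from 50 mg of left ventricle, accepted at an RNA integrity number of 6 or more, sequenced on an Illumina NovaSeq and aligned with HISAT2 v2.0.5. Build, annotation, counting tool and strand setting are not given in the sources used here. The deposited FPKM values were made by the authors, one column per library, with gene lengths. Fragments behind each value were recovered from steps of FPKM times length (100% of values up to 1000 fragments came out whole within 0.1) and give depths of 13.2 to 30.2 M fragments. A level near 1 FPKM in a short gene therefore rests on few fragments.

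Groups were taken from the labels. Values were tested as log2(FPKM + 1) with limma 3.58.1 (R 4.3.3), 1 mean per group over 37 libraries and a mean-variance trend, after keeping genes of at least 0.5 FPKM in at least 4 libraries, in 16 comparisons, each adjusted by Benjamini-Hochberg over all genes tested at a threshold of 0.05. The pseudocount makes the differences of low genes smaller than they are. The files held another unit than counts, so the count test of the study was not used. The method was tested on simulated data with known changes. Libraries were given in full for the 9 members past the threshold in any comparison and for the members with the largest and smallest difference at Arrest 1 d in each role group. The 49 members, gene lists and tests were chosen with earlier results of these data known. Sequences came from RefSeq, with 44 of 49 members used. Members on chromosome 18 (Ndufa2) were left out of the promoter search, while the promoters of all genes were not limited in this way. Alternatives covered the pseudocount, the filter, 3 scalings, a length correction, weights, a covariate, a replicate block, fits of 2 groups alone and each library left out. Adding the fragments of gene copies was chosen after seeing the data.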

Additional observations from a re-analysis of the deposited data

Results flagged for a closer look

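In 171 sets of libraries (each of the 16 named members, the subunit and assembly factor medians and the difference between these medians, in each group), the highest or lowest library was checked against the others, and 10 stood far from the rest, where chance gives about 1 in 20. Of these, 3 belong to the third Adr 3 d library: Ndufb11 at 122.5 FPKM where the group reached 439.8 FPKM, Ndufs1 at 13.3 FPKM where it reached 55.5 FPKM, and the subunit median at −1.35 (log2 ratio to the Naïve mean) where it reached 0.248.

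Among subunits in other groups, Ndufs4 was at 88.4 FPKM in the first Naïve library, the others starting at 80.2 FPKM. Ndufa12 was at 79.2 FPKM in the third Naïve library, above a lowest value of 30.8 FPKM, and at 58.4 FPKM in the third Arrest 7 d library, below a highest value of 114 FPKM. Ndufa13 was at 251 FPKM in the fifth Naïve library, above a lowest value of 197 FPKM. Among assembly factors, Ndufaf5 was at 6.21 FPKM in the first Arrest 3 d library, below a highest value of 14.2 FPKM, and Nubpl at 2.35 FPKM in the fourth Adr 7 d library, above a lowest value of 1.62 FPKM. The subunit median of the first Adr 0.5 d library was 0.516, above a lowest value of 0.302.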

How the results depend on the processing

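No called member or count changed direction under any alternative run. Counts below are members past the threshold, each with the number of all genes called in either direction after it. At Arrest 1 d against Naïve, 9 of 1179 became 4 of 1018 with quantile normalization, 15 of 1057 when scaled to fragments on genes, 23 of 1947 with sample quality weights, 17 of 901 in a fit of the 2 groups alone and 0 of 34 with the description number as a covariate, and the members ranged from 4 to 20 with 1 library left out. Its subunit median was 0.224 after quantile normalization, and that of Adr 0.5 d 0.245. At Arrest 0.5 d, 3 of 531 became 0 of 323 with no filter, 0 of 522 with quantile normalization, 0 of 299 with the length trend removed (which also moved the assembly factor median from 0.05 to −0.0544), 0 of 235 with the covariate, 0 of 280 with the replicate block, 7 of 492 when scaled to fragments on genes, 7 of 725 with weights and 5 of 395 in the fit of 2 groups, with a range of 0 to 9. For Arrest 1 d against 7 d, 3 of 312 became 6 of 397 with a mean of at least 1 FPKM, 7 of 358 and 5 of 342 when scaled to fragments on all and on nuclear genes, 22 of 1811 with weights, 1 of 72 with the covariate and 13 of 728 in the fit of 2 groups, with a range of 0 to 15. For Arrest 1 d against 3 d, 1 of 29 became 0 with no filter, quantile normalization, the length trend removed, the covariate, the replicate block or the fit of 2 groups, where 25, 27, 24, 12, 27 and 0 genes were called. It became 2 of 60 with a mean of at least 1 FPKM, 2 of 43 with scaling to nuclear genes, 5 of 102 with scaling to all genes and 6 of 210 with weights, with a range of 0 to 13. At Adr 0.5 d, 0 of 31 became 4 of 83 with scaling to fragments on genes, 10 of 362 with weights and 2 of 20 in the fit of 2 groups, with a range of 0 to 8. At Adr 1 d, 0 of 104 became 6 of 213 and 4 of 233 with that scaling and weights, with a range of 0 to 6. For Adr 1 d against 7 d, 0 of 7 became 1 of 27 and 8 of 239, with a range of 0 to 2. The cause of these changes was not tested. Same-numbered libraries of different groups were not correlated as a set (median correlation 0.00156, 11 of 144 pairs over 0.1), and the replicate block moved no other count past 1.5 times. A median over all pairs cannot show a feature that only some libraries share. The deepest libraries, at 21.7 to 30.2 M fragments, were replicate 4 of Adr at 1 and 3 d and of Arrest at 0.5, 3 and 7 d. All others had at most 18.5 M, and the part of depth was not tested. Differences that missed the threshold were not detected with 4 or 5 libraries a group, which does not show that groups were alike.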

Other observations

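The 4 Arrest libraries at 3 d fell on both sides of the Naïve mean. The subunit medians of replicates 1 and 4 were −0.178 and −0.203 (log2 ratio to the Naïve mean), and those of replicates 2 and 3 0.324 and 0.287. Summed cardiomyocyte markers for replicates 1, 4, 2 and 3 were 7484, 9036, 13510 and 13310 FPKM, and summed leukocyte markers 704, 1007, 518 and 395 FPKM. Their part in the subunit values was not tested.

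The other respiratory chain lists had values above 0 in Adr at 0.5 d as well, without a call. All 12 complex IV genes were above 0, with a median of 0.47, and all 9 complex III genes, with a median of 0.33. The 7 mitochondrial genome subunits of complex I had a median of −0.17, with 2 above 0, and in Adr at 1 d a median of −0.37, with 1 above 0.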
